A study of Mus musculus with 2 samples.

Results

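DNA methyltransferases and the proteins that work with them were followed in mouse embryonic stem (ES) cells of the EB5 line that had received Klf4 siRNA. The set was chosen by gene name, not by measured values: every gene probe whose RefSeq accession led to Dnmt1, Dnmt3a, Dnmt3b, Dnmt3l, Uhrf1, Hells, Tet1 or Mbd3 was taken. Of these 8 genes, 6 had a probe, with 1 probe each, among 10137 genes that could be named and tested on the arrays. No probe led to Dnmt3a or Tet1, so neither is described here.

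RNA came from siKlf4/EB5 cells, transfected with Klf4 siRNA and the pCAGEGFP-IP plasmid, which gives puromycin resistance, left for 24 h and then held in puromycin for a further 24 h. It was labelled with Cy3 and hybridised on 2 arrays against Universal Mouse Reference RNA labelled with Cy5, a pool from 11 cultured mouse lines that includes embryo, fibroblast, liver, macrophage, lymphocyte, muscle and testis lines. Both arrays belong to 1 group (n = 2); nothing in the labels tells if they came from separate cultures. EB5 is 1 line, the cells grew without feeders, and no EB5 cells without Klf4 siRNA were analysed here. The comparison is therefore siKlf4 ES cells against the pool, and it does not measure an effect of the siRNA.

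Methylation of cytosine at CpG sites is written by the de novo enzymes Dnmt3a and Dnmt3b and copied to the new strand at replication by Dnmt1. Dnmt3l has no catalytic activity of its own and stimulates the de novo enzymes, Uhrf1 recognises hemimethylated CpG and brings Dnmt1 to it, and Hells (Lsh) is a chromatin remodeller needed for normal methylation of repeats. Tet1 oxidises methylcytosine, and Mbd3 is a subunit of the NuRD remodelling and deacetylase complex that, in mammals, binds methylated CpG poorly despite its domain. ES cells are known for high expression of Dnmt3b and Dnmt3l, and for surviving without DNA methylation.

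Each value below rests on 1 oligonucleotide of 60 bases, shown because no other probe checks it. They are given 5′ to 3′ as the deposited scanner files list them, with no part marked, and their positions in the transcripts are not given there.
Dnmt3b: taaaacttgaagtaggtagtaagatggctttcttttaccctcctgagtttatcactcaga
Dnmt3l: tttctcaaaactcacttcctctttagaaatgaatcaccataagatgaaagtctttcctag
Dnmt1: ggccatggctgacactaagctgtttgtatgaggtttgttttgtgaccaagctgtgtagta
Uhrf1: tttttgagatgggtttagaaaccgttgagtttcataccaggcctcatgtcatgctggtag
Hells: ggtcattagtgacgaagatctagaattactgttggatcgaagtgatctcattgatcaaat
Mbd3: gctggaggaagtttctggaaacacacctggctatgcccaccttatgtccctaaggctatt
Each of these sequences occurred on 1 gene probe only. Their GC content ran from 33.3% in Dnmt3l to 50% in Mbd3, against a median of 41.7% over all gene probes. Dnmt3b and Hells stood at 36.7%, Uhrf1 at 43.3% and Dnmt1 at 45%.

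All 6 members stood above the reference pool in siKlf4 ES cells, and 3 of them, Dnmt3b, Dnmt3l and Hells, at least 2-fold. The excess ran from 8.77-fold for Dnmt3b to 1.13-fold for Mbd3, with a median log2 ratio of 1.36 over the members and -0.01 over all 21028 probes tested. A probe was called higher or lower when limma found its mean log2 ratio of ES cells over reference to differ from 0 (p under 0.05 after Benjamini-Hochberg adjustment across the array). That call is wide: 31.6% of all probes were called higher and 31.4% lower, and 115 of 161 negative control spots, designed to match no mouse transcript, passed too. At least 2-fold with the same p, 5.08% were higher and 5.19% lower, and 0 negative control spots. The largest absolute log2 ratio of a negative control spot was 0.52, and 12.1% of all probes were called higher above that value, as were 4 members: Dnmt3b, Dnmt3l, Hells and Uhrf1. In RNA from whole cultures, fewer expressing cells and less RNA per cell cannot be told apart, and with Cy3 on the ES cell RNA on both arrays a dye effect stays in each ratio.

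The labelled cell type was checked against marker genes. Of 10 ES cell markers, 9 stood higher than the pool and 0 lower, 1 missed the threshold, and the median log2 ratio was 3.44. Fgf4 stood at 0.00, and Esrrb, counted as higher, was above the negative controls in neither channel. All 8 fibroblast genes were lower, and Postn and Lox were not above the negative controls in the ES cells. Of 5 primitive endoderm genes 3 were lower, 0 higher and 2, Sox7 and Sox17, did not pass at 0.03 each. Only Sparc was at least 2-fold lower, at a log2 ratio of -2.55, and the list's median was -0.14, so these genes as a class were not shown to be low in the ES cells. Klf4 itself stood at log2 0.43 and 0.59 over the pool (adjusted p = 0.000463, limma), which says nothing of the knockdown without ES cells that lack the siRNA. The median gene probe lay 308 and 355 units above local background in the ES channel and 246 and 264 units in the reference channel. For negative control spots the medians were 129 and 138 units against 28.5 and 32.3. Signals in units are not normalised between channels, so a higher ES signal does not by itself make a gene higher. Ehmt2, not a member, gave 199 and 200 units in ES cells and 142 and 142 in the reference. It was called lower, at a log2 ratio of -0.36. For every member, Dnmt1 and Mbd3 included, both ES values lay above both reference values. The ES medians over all gene probes also lay above both reference medians, so separate channels set no member apart. The share of all probes with separate channels was not counted.

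**Figure D1:**
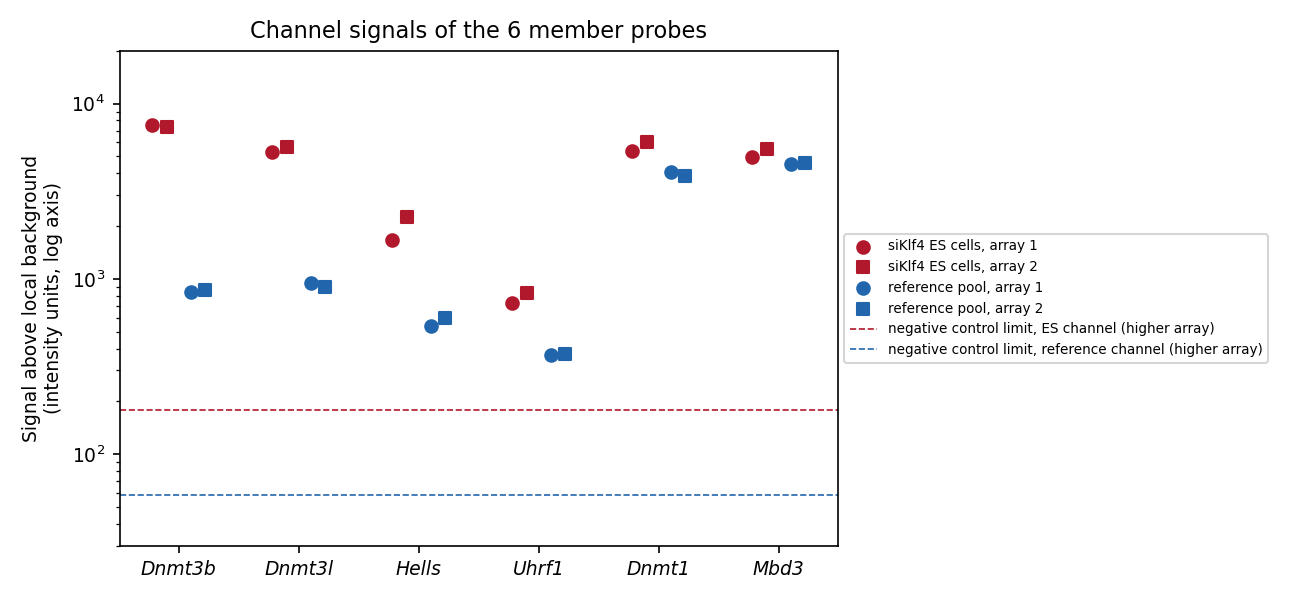
Signal above local background (intensity units, log axis) of the 6 member probes in siKlf4 ES cells (red) and in the reference pool (blue) on array 1 (circles) and array 2 (squares); dashed lines mark the higher of both arrays' negative control limits per channel, 178 for ES cells and 58.4 for the reference. Every point lies above its limit. The ES cell points of Dnmt3b and Dnmt3l stand far above the reference points, while those of Dnmt1 and Mbd3 lie close to them.

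The de novo enzyme Dnmt3b had the highest ratio of the set. Its probe gave 7558 and 7380 units above background in siKlf4 ES cells, against 845 and 858 in the reference. The unnormalised channels did not overlap on either array, as for every member, which alone does not show a higher gene. The log2 ratios were 3.28 and 2.99, a mean of 3.13 ± 0.21 (SD, n = 2; 95% interval 2.95 to 3.32; adjusted p = 2.45e-06, limma), or 8.77-fold. From the top, Dnmt3b ranked at place 48 of 21028 probes. It was also the member whose arrays differed most, by -0.29 for array 2 minus array 1, a gap larger than that of 98.1% of all probes.

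Dnmt3l, the inactive partner of the de novo enzymes, came next. Its signals were 5301 and 5638 units in ES cells, against 943 and 902 units in the reference, again without overlap of the unnormalised channels. Log2 ratios of 2.63 and 2.54 gave a mean of 2.58 ± 0.060 (SD, n = 2; 95% interval 2.48 to 2.69; adjusted p = 9.16e-07, limma), or 6.00-fold, at place 99 of 21028. The lower array of Dnmt3b (2.99) lay above the higher array of Dnmt3l (2.63), so the order of this pair was the same on every array, although the difference of 0.55 was not tested. Ratios of different probes say how far each gene stood above its own level in the pool, not which transcript was more abundant.

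Dnmt1, the maintenance enzyme, stood close to the pool. Its probe was bright in both channels, with 5389 and 5995 units in ES cells against 4086 and 3859 in the reference. The log2 ratios of 0.51 and 0.48 averaged 0.49 ± 0.016 (SD, n = 2; 95% interval 0.40 to 0.59; adjusted p = 0.000138, limma), a 1.41-fold excess. The unnormalised ES signal was the higher one on both arrays, but the ratio lay inside the spread of the negative controls, whose spots were much dimmer.

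Uhrf1, which guides Dnmt1 to hemimethylated sites, was the dimmest member. It gave 725 and 828 units in ES cells, against 367 and 374 in the reference, and the unnormalised channels did not overlap. Both arrays gave a log2 ratio of 0.94 (SD 0.00013, n = 2; 95% interval 0.85 to 1.03; adjusted p = 1.18e-05, limma), or 1.92-fold. An agreement that close between 2 arrays is no measure of the error. Limma's interval borrows the spread of the other probes, but it too covers only differences between the arrays, not a dye effect or the processing. With uncorrected signals the ratio was 0.56 (adjusted p = 0.000681, limma), outside that interval though still past the threshold.

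Hells gave 1666 and 2245 units in ES cells, against 537 and 601 units in the reference. Both of these unnormalised ES values exceeded both reference values. Its log2 ratios of 1.75 and 1.82 averaged 1.78 ± 0.050 (SD, n = 2; 95% interval 1.68 to 1.88; adjusted p = 2.08e-06, limma), or 3.44-fold, at place 271 of 21028.

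Mbd3, the NuRD subunit, was the member nearest to the pool. It gave 4953 and 5493 units in ES cells, against 4537 and 4581 in the reference. The log2 ratios were 0.23 and 0.11, a mean of 0.17 ± 0.089 (SD, n = 2; 95% interval 0.06 to 0.29; adjusted p = 0.022, limma), or 1.13-fold. This value lay within the spread of those control spots and did not pass with median centring in place of loess (0.078, adjusted p = 0.189) or with a smaller background offset of 10 (0.13, adjusted p = 0.0898). Over all settings tried, its adjusted p ran from 0.0206 to 0.189.

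**Figure D2:**
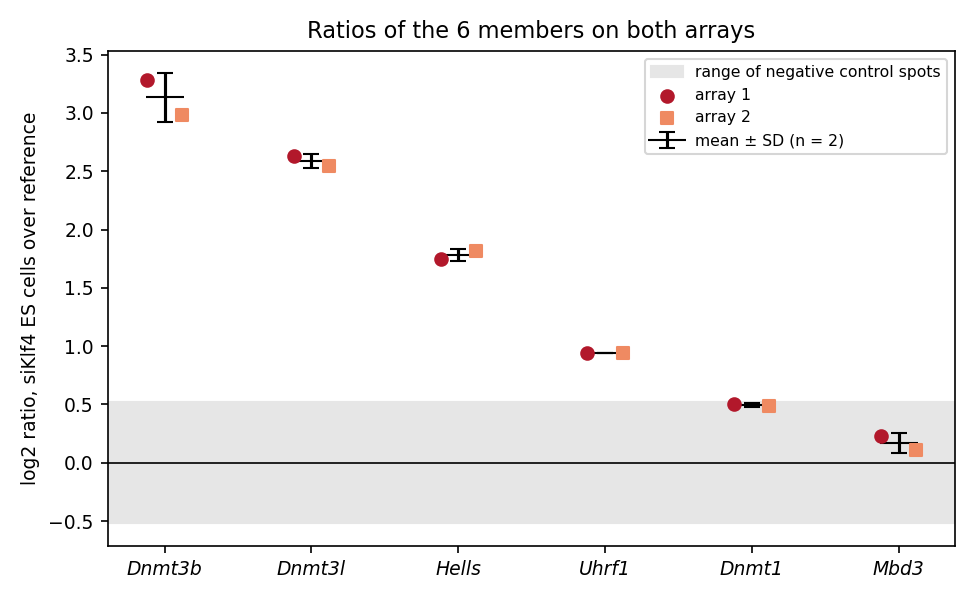
Log2 ratio of siKlf4 ES cells over the reference pool for each member on array 1 (dark circles) and array 2 (light squares), with the mean and SD (black, n = 2); the grey band spans the largest absolute ratio of a negative control spot, 0.52. The members descend from Dnmt3b (3.13) to Mbd3 (0.17) with no overlap between neighbours, and Dnmt1 and Mbd3 lie inside the band.

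Ordered by ratio, the members ran Dnmt3b, Dnmt3l, Hells, Uhrf1, Dnmt1 and Mbd3. For each of the 5 neighbouring pairs, the lower array of the upper gene exceeded the higher array of the lower gene. The narrowest step, 0.32, lay between Dnmt1 and Mbd3 and the widest, 0.84, between Hells and Uhrf1. The step from Dnmt3b to Dnmt1, the de novo and the maintenance enzyme, thus spanned 3 other members.

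**Figure D3:**
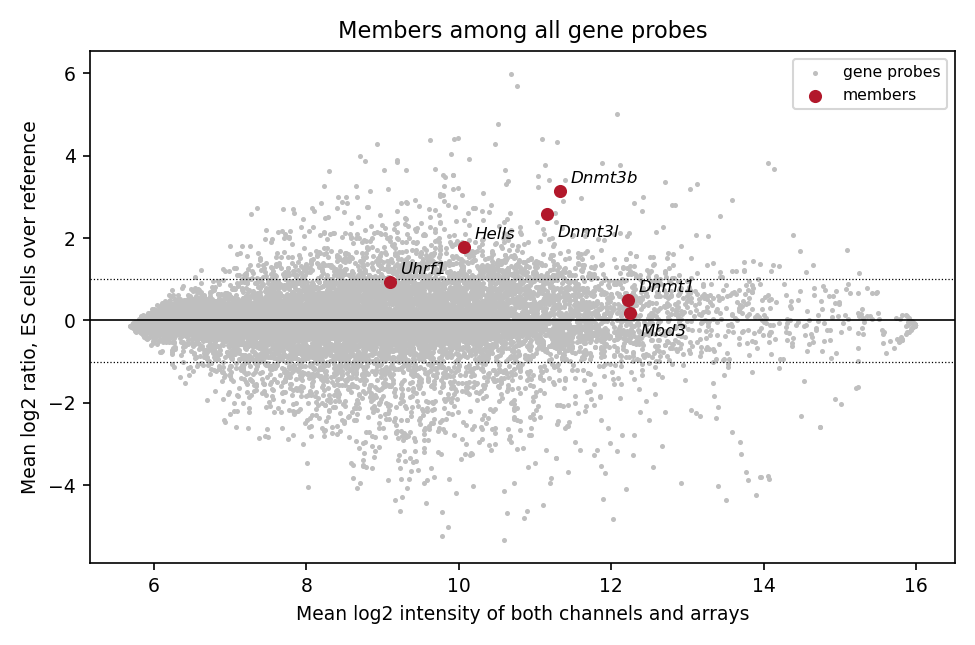
Mean log2 ratio of siKlf4 ES cells over reference against mean log2 intensity of both channels and arrays, for all 21028 probes tested (grey) and the 6 members (red); dotted lines mark 2-fold. Dnmt3b, Dnmt3l and Hells lie above the upper dotted line and Uhrf1 just under it, while Dnmt1 and Mbd3 lie among the brighter probes near 0.

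Genes whose probes behaved most like those of the 3 members at least 2-fold higher were found by distance over 4 values, the log2 ratio and the mean log2 intensity on both arrays. Nearest to Dnmt3b were Tcea3 (distance 0.38) and Fxyd6 (0.43), with mean log2 ratios of 2.89 and 3.40. Nearest to Dnmt3l were Slc7a3 (0.13; log2 ratio 2.60) and Dhx16 (0.36; log2 ratio 2.38), and nearest to Hells were Ythdf1 (0.23; log2 ratio 1.69) and Psrc1 (0.24; log2 ratio 1.90). With 1 group of 2 arrays, this likeness means a similar ratio and brightness only.

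Promoter windows from RefSeq (GRCm38.p6, 250 bases before to 50 after an annotated start) matched all 6 members, with 11 starts in all. They are described because CpG is the substrate of these enzymes, and the sequences of the 3 members at least 2-fold higher are shown, with CpG in capitals. Dnmt3b has 1 start, at chr2:153649199-153649498 on the plus strand, Hells 1 start, at chr19:38930740-38931039 on the plus strand, and Dnmt3l 3 starts, of which the most upstream, at chr10:78042037-78042336 on the plus strand, is given.
Dnmt3b: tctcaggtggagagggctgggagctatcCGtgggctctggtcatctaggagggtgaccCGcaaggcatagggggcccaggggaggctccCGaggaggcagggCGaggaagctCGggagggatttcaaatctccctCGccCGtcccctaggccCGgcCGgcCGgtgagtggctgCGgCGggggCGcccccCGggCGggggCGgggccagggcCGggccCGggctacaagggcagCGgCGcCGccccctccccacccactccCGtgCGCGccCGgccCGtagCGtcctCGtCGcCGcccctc
Dnmt3l: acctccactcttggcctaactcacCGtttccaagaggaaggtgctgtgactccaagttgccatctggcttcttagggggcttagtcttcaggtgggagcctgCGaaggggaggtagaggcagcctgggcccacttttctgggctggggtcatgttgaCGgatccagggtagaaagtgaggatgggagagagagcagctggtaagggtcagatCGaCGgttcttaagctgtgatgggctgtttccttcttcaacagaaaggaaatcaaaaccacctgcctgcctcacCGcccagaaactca
Hells: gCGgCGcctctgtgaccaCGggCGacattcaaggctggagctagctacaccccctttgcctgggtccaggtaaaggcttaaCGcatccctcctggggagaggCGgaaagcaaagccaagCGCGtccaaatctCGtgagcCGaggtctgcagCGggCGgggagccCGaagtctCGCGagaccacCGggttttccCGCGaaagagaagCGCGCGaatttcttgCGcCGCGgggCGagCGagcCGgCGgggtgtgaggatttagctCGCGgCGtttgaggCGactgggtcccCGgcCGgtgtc
The windows of the 3 genes differed in CpG. Dnmt3b held 30 CpG and Hells 34, more than 88.3% and 92.3% of the 32851 promoter windows in the table, whose median was 7. The Dnmt3l window shown held 6, more than 43.6% of windows, and its other starts held 4 and 3. So the 2 members with the highest ratios, Dnmt3b and Dnmt3l, stood at opposite sides of that median. Of the remaining members, Uhrf1 had 12 and 33 CpG at its 2 starts, Dnmt1 2, 12 and 33 at its 3 starts, and Mbd3 22 at 1 start. The arrays do not tell which start was in use.

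A handful of short motifs were then searched on both strands of the 11 windows. The GC box GGGCGG occurred 4 times at Dnmt3b, once at Hells, 1, 2 and 0 times at the starts of Dnmt3l, 1 and 3 times at those of Uhrf1, 0, 0 and 2 times at those of Dnmt1, and 2 times at Mbd3, and 35.7% of all windows held it. GGGNGTGG, a GT box of the kind Klf factors bind, occurred once at Dnmt3b, 0, 2 and 2 times at Dnmt3l, once at each start of Uhrf1, and 0 times at Hells, Dnmt1 and Mbd3, against 17.6% of all windows with a match. TTTNNCGC, an E2F-type motif, occurred once at Hells, once at each start of Uhrf1 and 3 times at the most downstream start of Dnmt1, against 5.17% of windows, and not in those of Dnmt3b, Dnmt3l and Mbd3. The octamer ATGCAAAT was found in 0 of the 11 windows and in 1.74% of all windows. CCAAT was found at Uhrf1, Dnmt1 and Mbd3 and in 37.4% of all windows. These are matches of letters in a window and are not binding sites.

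Other genes of DNA methylation were read from lists of readers, maintenance partners, demethylation and base excision, NuRD, heterochromatin and the S-adenosylmethionine cycle. A list of S phase genes, which are not genes of DNA methylation, was read beside them. Of 72 measured genes in all these lists, 53 stood higher than the pool and 15 lower, 4 missed the threshold, and the median log2 ratio was 0.48. The 72 include 15 S phase genes, all called higher at a median of 1.06, which raise the count of higher genes. These counts are to be read against 31.6% higher and 31.4% lower over all probes, and counts beyond the negative control spots against 12.1% higher and 10.8% lower.

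Of 7 measured partners of maintenance, 6 were called higher, 0 lower and 1 did not pass, at a median log2 ratio of 0.35, but only 2, Cdca7 and Lig1, lay beyond the 0.52 of the negative control spots. Cdca7, which works with Hells in remodelling, was 2.95-fold higher at a log2 ratio of 1.56 ± 0.051 (SD, n = 2; adjusted p = 2.99e-06, limma). The replicative ligase Lig1 stood at 0.92. The chromatin assembly subunits Chaf1a and Chaf1b, at 0.42 and 0.35, and Dmap1, a Dnmt1-binding protein, at 0.17, lay within the spread of the control spots, and Dmap1 did not pass with median centring (0.06, adjusted p = 0.329). All 15 S phase genes were called higher, 14 of them beyond that spread and 9 at least 2-fold, with a median of 1.06 and a range of 0.43 to 2.14. Ccne1 (2.14), Mcm6 (1.36), Mcm3 (1.35), Mcm2 (1.34) and Mcm5 (1.33) led that list. Uhrf1 (0.94) and Dnmt1 (0.49) lay within this range and Hells (1.78) near its top, whereas Dnmt3b and Dnmt3l lay above it. The part of cell cycling in the ratios of Dnmt1, Uhrf1 and Hells was not tested.

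Of 6 measured readers of methylated DNA, 4 were called lower and 2 higher, but beyond the spread of the negative control spots only 2 were lower and 1 higher. The median log2 ratio, -0.28, lay within that spread. Mbd2, a methyl-CpG reader that takes the place of Mbd3 in an alternative NuRD complex, gave 467 and 629 units in ES cells, against 1498 and 1584 in the reference. Its log2 ratio was -1.52 ± 0.13 (SD, n = 2; adjusted p = 8.38e-06, limma). Mbd4, a reader with glycosylase activity, was higher at 0.66. Without background correction these ratios were nearer to 0, at -1.01 for Mbd2 and 0.22 for Mbd4, and both passed. Uhrf2 and Zbtb33 stood within the spread of those control spots at -0.31 and 0.15, Zbtb33 missing the threshold without background correction (0.04, adjusted p = 0.0818). Mbd1, counted as lower, was not above the negative controls in the ES cells.

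In the NuRD complex, which holds Mbd3, 7 of 10 measured genes stood higher and 3 lower, of which 5 and 1 lay beyond the spread of the control spots, at a median of 0.54. Mta3 and Hdac1 were at least 2-fold higher at log2 ratios of 1.24 and 1.19, the histone-binding subunits Rbbp4 and Rbbp7 stood at 0.70 and 0.64, and Mbd2 was the lowest. Mbd3 itself, at 0.17, lay below the median of this list.

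Demethylation and base excision genes split, with 8 of 13 higher, 4 lower and 1 not passed (median 0.36). Beyond the spread of the control spots, 3 were higher and 3 lower. Dppa3 (Stella), which protects methylation in the early embryo and restrains Uhrf1, was 12.6-fold higher at a log2 ratio of 3.66 ± 0.027 (SD, n = 2; adjusted p = 4.71e-07, limma). The uracil glycosylase Ung (2.05) and Parp1 (1.90) followed. Without background correction Dppa3 stood at 2.13. The stress-response genes Gadd45g (-1.45) and Gadd45b (-1.18) were lower, and the thymine glycosylase Tdg, which removes the oxidised bases made by Tet enzymes, did not pass at -0.08.

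Heterochromatin and targeting genes were higher in 10 of 14 cases, lower in 3 and not passed in 1, with a median of 0.48, and 7 were higher and 1 lower beyond the control spots. The Polycomb subunits Eed and Ezh2 stood at 2.07 and 1.03, the corepressor Trim28 at 1.52, the H3K9 methyltransferase Setdb1 at 1.19 and the heterochromatin protein Cbx1 at 0.91. Suv39h1, another H3K9 methyltransferase, was lower at -0.88, with an ES signal above the negative controls on 1 array. Of 8 genes of the S-adenosylmethionine cycle, which supplies the methyl group, 5 stood higher and 2 lower, 1 missed the threshold, and the median was 0.34. Beyond the control spots, 2 were higher and 1 lower. Mat2a, which makes S-adenosylmethionine outside the liver, was 2.64-fold higher, and Ahcy, which clears the product S-adenosylhomocysteine, 1.91-fold higher. Adk and Gnmt were lower at log2 ratios of -0.86 and -0.49.

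**Figure D4:**
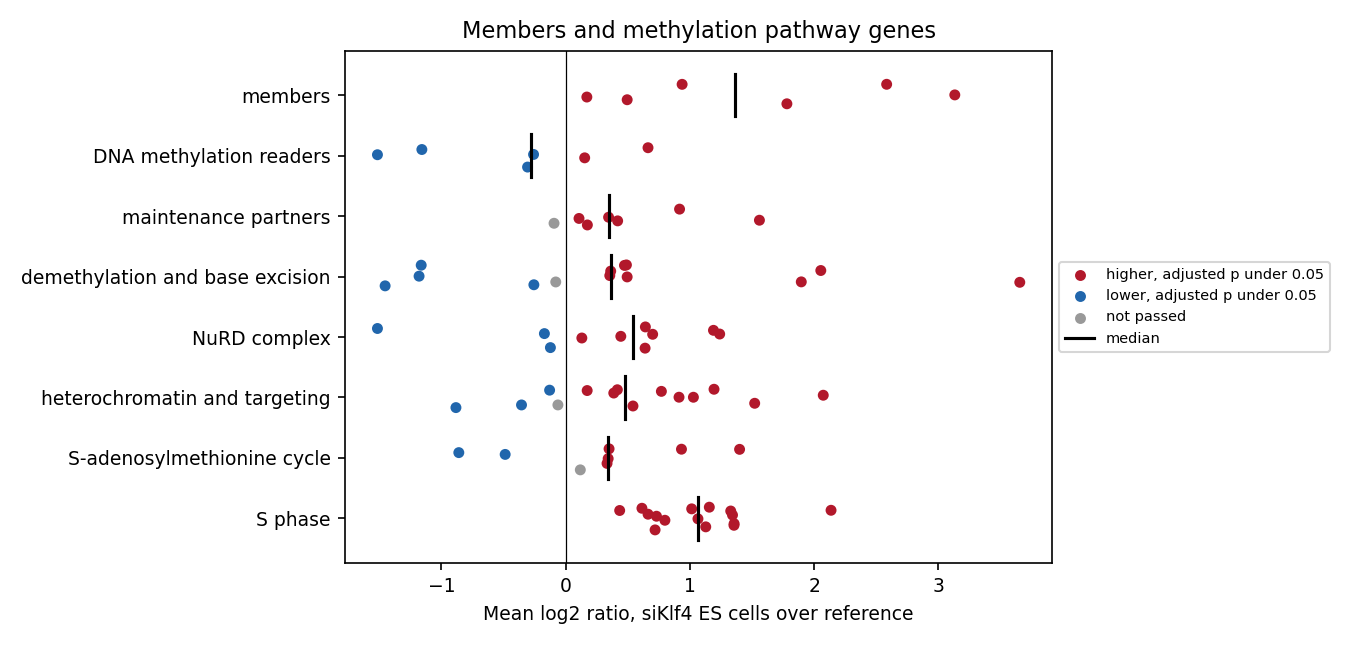
Mean log2 ratio of siKlf4 ES cells over reference for the 6 members (top row) and the measured genes of 7 lists, with red for higher, blue for lower and grey for not passed, and a black bar at each median; vertical positions within a row are scattered for legibility. The S phase row lies wholly above 0, and the reader row is the only one of those drawn with a median below 0 (-0.28, within the spread of the negative control spots).

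The size of the member ratios depended on how background was treated and on the normalisation, and their direction did not in any setting tried. Dnmt1 and Mbd3 were lowest with median centring in place of loess, at 0.40 and 0.078. Dnmt3b ran from 2.73 to 3.28, Dnmt3l from 2.23 to 2.63, Hells from 1.33 to 1.83, Uhrf1 from 0.56 to 1.00 and Dnmt1 from 0.40 to 0.51 over 13 values each, single arrays included. The adjusted p of these 5 stayed at or under 0.00139 in the settings that allow a test. Uhrf1 passed 2-fold only with the smaller offset of 10.

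**Figure D5:**
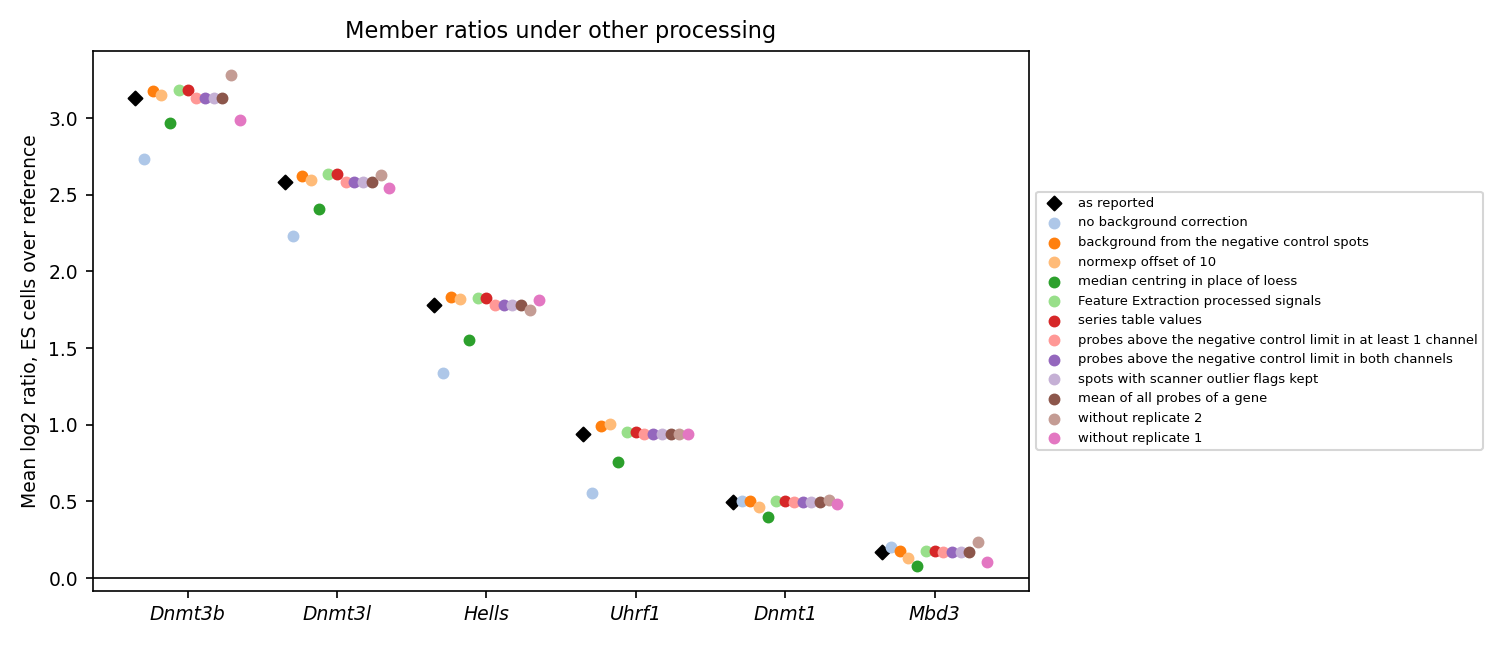
Log2 ratio of siKlf4 ES cells over reference for each member as reported (black diamonds) and under 12 other settings, including each array alone (coloured circles). Every point lies above 0, and the values without background correction are the lowest for Dnmt3b, Dnmt3l, Hells and Uhrf1.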

How the data were processed

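Two-colour arrays of 2 siKlf4 ES cell samples were used. The authors' scanner output (Agilent Feature Extraction A.7.5.1, per the file headers) gives intensity values in arbitrary units and a log10 ratio of red over green processed signals. A deposited series table of log10 values carries the same ratios (within 2e-04 for 99.6% of probes on each array). How that table was made, and any genome build, are not given in the sources used here.

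Mean signals were corrected by normexp on the local background median (offset 50) and loess-normalised within arrays, with control spots at weight 0, in limma 3.58.1 and R 4.3.3. Outlier spots removed 24 of 21052 probes. Ratios were tested against 0 with lmFit and eBayes and adjusted over 21028 probes; p-values measure only the spread between these arrays, which may be technical, and the number of arrays limits precision. A signal counts as above the negative controls when it exceeds their 95th percentile (ES channel 155 and 178 units, reference 40.9 and 58.4). Of the gene probes, 10422 had 1 symbol through RefSeq; the brightest probe stands for a gene. Up to 5 passing genes per list with the largest ratios were eligible for naming, and members always. Suv39h1, Tdg, Fgf4, Esrrb, Sox7, Sox17, Postn, Lox, Mbd1 and Ehmt2 were named after their values were seen. Some genes counted in the lists are not reported here by name. Members, lists and tests were chosen with earlier results of these data known. The fit was tested on simulated data.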

Additional observations from a re-analysis of the deposited data

How the results depend on the processing

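Background correction, normalisation, filters on dim probes, flagged spots, the choice of probe and single arrays were varied. No member changed sign. Mbd3 no longer passed with an offset of 10 (0.13) or with median centring (0.078). Without background correction the counts at least 2-fold from the reference fell to 510 higher and 467 lower over all probes, against 1068 and 1092 as reported. Among the genes of the lists, S phase included, they fell to 13 higher and 2 lower, against 20 and 5. Of those 20, 9 were S phase genes. The cause was not tested. On 1 array alone, values run from 2.99 to 3.28 for Dnmt3b, 2.54 to 2.63 for Dnmt3l, 1.75 to 1.82 for Hells, 0.48 to 0.51 for Dnmt1 and 0.11 to 0.23 for Mbd3, and Uhrf1 stands at 0.94 on both; a single array allows no test, so counts of calls were not run there. No paired analysis was possible because there is 1 group. The slide could not be used as a block, since each array is its own slide.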
